A study of Mus musculus with 18 samples.

Results

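Mouse bone marrow-derived macrophages that had received no compound were compared with and without 4 h of LPS, the lipopolysaccharide of the outer membrane of Gram-negative bacteria. The comparison holds 6 of the 18 libraries of a study of dimethyl itaconate, an ester of the macrophage metabolite itaconate, and was defined by the labels alone: LPS replicates 1 to 3 against vehicle replicates 1 to 3, with all genes. The cells of all 6 libraries were wild type, of the C57BL/6 strain, grown from marrow with M-CSF, a growth factor under which marrow cells turn into macrophages, at 20 ng/ml. All were given vehicle for 12 h. The LPS group then received LPS of Escherichia coli at 100 ng/ml for 4 h, and the vehicle group, which the labels call unstimulated, received none. Messenger RNA was counted from the polyadenylated end of the transcripts. The labels give no age or sex and do not say whether replicates were separate animals or separate cultures, so p-values measure only the spread between these libraries, which may be technical.

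Macrophages sense LPS with the receptor TLR4 and its helpers CD14 and MD-2. From the cell surface the adaptor MyD88 leads to the IRAK kinases, NF-kB and the MAP kinases, which switch on cytokine, chemokine and survival genes. From the endosome the adaptor TRIF leads to the factor IRF3 and to interferon beta, which the cells secrete and sense themselves, and the resulting complex of STAT proteins with IRF9 switches on antiviral genes. Feedback inhibitors of each branch are themselves target genes, and macrophages activated this way are known to raise glycolysis and to make itaconate and nitric oxide.

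Promoter stretches of 6 genes that rose are shown because they hold the letters that NF-kB and the interferon factors are known to bind. Given are the 250 bases before the transcription start in the RefSeq annotation (GRCm38.p6), 5′ to 3′ on the strand of the gene, with capitals for matches on either strand. For the first 3 the capitals mark the kappa B site of NF-kB, searched as GGG, 5 bases of any kind and CC, where overlapping matches run together. For the other 3 they mark the interferon-stimulated response element (ISRE) of IRF and STAT complexes, searched as GAAA, 2 bases of any kind and GAAA.
Nfkb2: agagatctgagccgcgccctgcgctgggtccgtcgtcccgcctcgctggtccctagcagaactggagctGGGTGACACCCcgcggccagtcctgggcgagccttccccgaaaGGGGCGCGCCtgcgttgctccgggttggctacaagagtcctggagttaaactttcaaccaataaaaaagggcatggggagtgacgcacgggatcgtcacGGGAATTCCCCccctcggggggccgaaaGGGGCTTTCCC
Rela: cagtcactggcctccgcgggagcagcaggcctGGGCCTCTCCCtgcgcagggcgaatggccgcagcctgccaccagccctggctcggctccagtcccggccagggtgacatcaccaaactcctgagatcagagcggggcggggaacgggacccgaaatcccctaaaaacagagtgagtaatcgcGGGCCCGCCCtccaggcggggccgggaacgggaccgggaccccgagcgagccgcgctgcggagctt
Nfkbia: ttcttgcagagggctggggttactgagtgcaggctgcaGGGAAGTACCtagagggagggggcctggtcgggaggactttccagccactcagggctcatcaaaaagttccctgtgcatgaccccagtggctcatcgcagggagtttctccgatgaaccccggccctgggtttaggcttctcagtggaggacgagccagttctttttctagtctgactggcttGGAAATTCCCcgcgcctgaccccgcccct
Cxcl10: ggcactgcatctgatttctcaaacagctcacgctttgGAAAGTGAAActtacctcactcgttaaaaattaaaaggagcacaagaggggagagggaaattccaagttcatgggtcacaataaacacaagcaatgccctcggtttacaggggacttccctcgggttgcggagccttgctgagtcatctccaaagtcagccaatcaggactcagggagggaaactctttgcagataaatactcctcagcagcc
Ifit1: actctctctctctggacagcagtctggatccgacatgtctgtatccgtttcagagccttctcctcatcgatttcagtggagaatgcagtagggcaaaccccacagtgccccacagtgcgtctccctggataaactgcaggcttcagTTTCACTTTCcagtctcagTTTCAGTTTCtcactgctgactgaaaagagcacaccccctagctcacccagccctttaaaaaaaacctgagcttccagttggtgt
Ifit3: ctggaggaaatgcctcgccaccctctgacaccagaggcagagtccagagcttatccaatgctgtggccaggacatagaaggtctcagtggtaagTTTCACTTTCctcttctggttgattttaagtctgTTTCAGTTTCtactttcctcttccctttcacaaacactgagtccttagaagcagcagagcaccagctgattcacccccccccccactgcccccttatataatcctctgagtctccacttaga

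The window of Nfkb2 is chr19:46304487-46304736 on the plus strand, that of Rela chr19:5637291-5637540 on the plus strand and that of Nfkbia chr12:55492648-55492897 on the minus strand. The window of Cxcl10 is chr5:92348890-92349139 on the minus strand, and on the plus strand those of Ifit1 and Ifit3 are chr19:34640639-34640888 and chr19:34583279-34583528. The kappa B letters are common: 48.7% of all 27025 genes with a listed promoter held them, and 66.5% of the tested genes among these. A gene with several listed starts was counted once, as holding the letters if any of its promoters did. Shares were 68.2% for genes called higher, 60.5% for those that rose more than 16-fold and 67.0% for genes called lower. A stricter spelling with GGG, 2 bases of any kind and TTTCC was chosen after the data were seen. It was in 1.65% of all genes with a listed promoter and 1.87% of the tested genes among these. Its shares were 3.07% for genes called higher, 6.5% for those that rose more than 16-fold and 1.41% for genes called lower. It was in 5 of the 13 NF-kB subunit and inhibitor genes with a listed promoter, and in 4 of the 10 called higher. The ISRE letters were in 3.46% of all genes with a listed promoter and 3.53% of the tested genes among these. Among genes called higher the share was 8.02%, among those that rose more than 16-fold 16.5% and among genes called lower 2.54%. Of the 23 antiviral effector genes with a listed promoter 10 held the ISRE letters, and so did 7 of the 19 called higher. A match is a description of letters in this window and not a measured binding site.

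The 3 LPS libraries were unequal. Totals were 7010265, 2228760 and 4367091 counts for vehicle and 3761119, 2294042 and 955718 for LPS, so that 3 counts in a library correspond to 0.428 to 3.14 counts per 1000000 counts of the library (CPM). Log2 levels correlated at 0.932 to 0.971 between vehicle replicates, at 0.891 between LPS replicates 1 and 2, and at 0.790 and 0.771 between these and LPS replicate 3. Genes at 0 in a library although the rest of its group predicted at least 10 counts were 0.0892% to 0.326% in vehicle libraries, 2.04% and 2.09% in LPS replicates 1 and 2, and 6.17% in LPS replicate 3. The 10 most abundant genes held 35.2% of the counts in LPS replicate 3, 18% and 18.9% in the other LPS libraries and 10.8% to 12.2% in vehicle libraries. The main counts of genes called, in all and for nearly all gene lists, are also given without LPS replicate 3. Counts by fold size, by overlap between groups, with other scalings or tests and in cells given dimethyl itaconate are not.

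All 10 markers chosen for macrophages were detected in both groups, which matches the labelled cell type. Their summed level, in CPM of the unscaled library, was 8627, 8715 and 11560.1 in vehicle libraries and 4413, 4316 and 3381 after LPS. Scaled by library totals alone, the median of all tested genes stood at log2 -1.14 after LPS. These sums and those of the other cell types are to be read against that value. On the scaled values 2 of the 10, Cd14 and Fcgr1, passed as higher. Markers of neutrophils summed to 589.9, 440.2 and 504 and 338, 237 and 164, stromal markers to 67.8, 128 and 114 and 67.8, 39.7 and 39.8. Dendritic cell markers summed to 7.7, 12.1 and 9.39 and 15.7, 13.9 and 0, and erythroid and megakaryocyte markers to 112, 89.7 and 92.5 and 109.8, 95.9 and 23, lowest in LPS replicate 3, with 6 of their 8 genes at 0 in every library. Of the neutrophil markers 1, Retnlg, passed as lower, with 119, 53 and 79 counts in vehicle libraries and 0, 0 and 0 after LPS. Summed markers of T and NK cells, of B cells and of mast cells and basophils were each at most 12.6 on this scale in every library, with Cd3e, Cd8a, Cd79a, Pax5, Fcer1a and Tpsb2 at 0 in all 6. The part of other cells in the results below was not tested, and in bulk RNA fewer cells of a type and less RNA per cell cannot be told apart.

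Among 41 gene lists the largest median rises after LPS were those of CC and CXC chemokines (log2 6.57 each) and of TNF family and costimulatory genes (log2 6.34). Without LPS replicate 3 the order changed, and the interferon-inducible GTPases led at log2 6.68. CXC chemokines then stood at 6.4, TNF family and costimulatory genes at 6.12 and CC chemokines at 5.88. The share of raised members was highest for the interferon-inducible GTPases, TNF family and costimulatory genes and antiviral effectors. The share of lowered members was highest for the ATF4 and amino acid stress list, of which 40% fell and 26.7% rose, and for purinergic receptor and proliferation genes. Without LPS replicate 3 the proliferation list came first, with 17 of 36 tested members lower, against 8 of 18 of the ATF4 list. In all, LPS raised 1250 of 9341 tested genes (13.4%) and lowered 858 (9.19%) at an adjusted p under 0.05. Without LPS replicate 3, 1673 of 10155 genes were higher (16.5%) and 1623 lower (16%). The number of calls also depended on the vehicle libraries: 782 higher and 303 lower without vehicle replicate 1, 886 and 554 without vehicle replicate 2, and 746 and 250 without vehicle replicate 3. Of the raised genes 805 rose more than 4-fold, 255 more than 16-fold, and 102 more than 64-fold, with a median of 5.5-fold. The lowered genes fell 7.79-fold in the median, and 665 fell more than 4-fold. The size of many falls is uncertain: 150 lowered genes were at 0 in all LPS libraries and 463 at 0 in LPS replicate 3. Of the raised genes 10 were at 0 in all vehicle libraries. Levels did not overlap between the groups for 1226 of the raised and all 858 of the lowered genes. Over all tested genes the LPS libraries lay wholly above the vehicle libraries for 18.9% and wholly below for 25.4%.

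**Figure D1:**
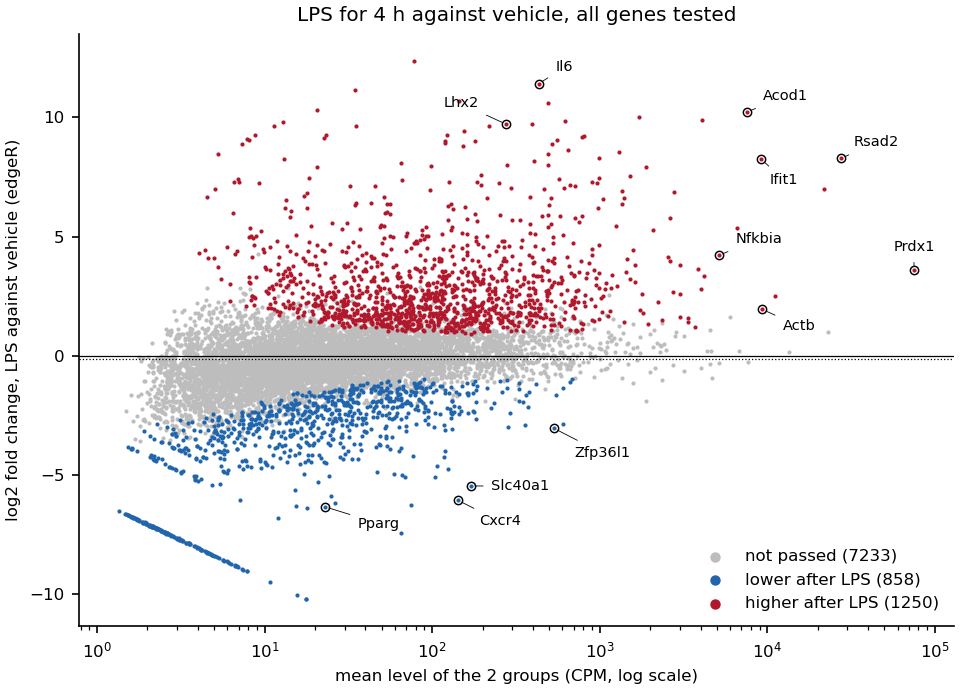
Each point is 1 of the 9341 tested genes, placed by the mean of its vehicle and LPS levels (CPM after scaling, log axis) and by its log2 fold change. The 1250 raised genes are red, the 858 lowered genes blue and the rest grey, the dotted line is the median of all genes, and the straight blue band at lower left holds genes at 0 in all LPS libraries, whose fitted values depend on the prior count.

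The split between rises and falls depended on how libraries were scaled. With the main scaling (TMM) 59.3% of calls were increases and the median gene stood at log2 -0.14. With DESeq2's size factors (RLE) the share was 52.2% (1112 higher, 11.9% of tested genes, and 1017 lower, 10.9%) and the median -0.29. With library totals alone it was 18.3% (625 higher, 6.69% of tested genes, and 2794 lower, 29.9%) and the median -1.14. Genes called higher held 13.8%, 15.6% and 14.6% of the counts of the vehicle libraries and 52.7%, 53.4% and 63.8% after LPS. Of the raised genes 1112 also passed with RLE scaling and 625 with library totals, where 11 had the opposite sign. All 858 lowered genes passed under both. Both scalings shift values downward from TMM (medians of -0.29 and -1.14 against -0.14), so this was no test of the falls. Fold changes below are from TMM scaling, and lie about 1 log2 unit lower with library totals. Beside the counts of each list its shares of tested members called higher and lower are given. They are to be read against 13.4% and 9.19% of all genes, and counts with library totals against 6.69% and 29.9%. Counts without LPS replicate 3 are from a refit with its own filter, to be read against 16.5% higher and 16% lower. That refit tested more members of some lists. A gene low in 1 group was tested only because of its counts in the other, and the shares and medians leave out members low in both groups. A gene whose call ended under another scaling or without a single library is named beside its value.

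Transcripts of the TLR4 complex itself moved unequally. Cd14, the surface protein that hands LPS to the receptor, stood at 112, 79.9 and 84.6 CPM in the vehicle libraries and 583, 429 and 991 CPM after LPS (here and below in replicate order; from here CPM refer to the TMM-scaled library size). The groups did not overlap, and the rise was 7.21-fold (log2 2.85 ± 0.40, adjusted p = 0.00086). Tlr4, the receptor, did not pass at 70.6, 45.8 and 61.9 against 55.6, 27.2 and 15.6 CPM (log2 -0.79 ± 0.46, adjusted p = 0.26), nor did Ly96, which encodes MD-2 (log2 1.51 ± 0.52, adjusted p = 0.062). Myd88, the adaptor of the surface branch, rose 6.55-fold (log2 2.71 ± 0.32, adjusted p = 0.00031), whereas the adaptors of the endosomal branch, Ticam1 and Ticam2, did not pass (log2 0.55 and 0.68). Among the kinases, Irak2, which prolongs signalling, rose 6.61-fold and Irak3, an inhibitory family member, 4.26-fold, while Irak1 and Irak4, the early kinases, stood at log2 -1.05 and -1.20 and passed as lower without LPS replicate 3 but not with all libraries. Ikbke, a kinase of the interferon branch, went from 45.6 ± 5.5 to 259 ± 95.8 CPM (SD, n = 3 a group) and rose 5.65-fold (adjusted p = 0.0011). In all 10 of 26 tested genes of this list rose (10 rose and 3 fell without LPS replicate 3), with a median of log2 0.91 that became -0.16 with library totals. LPS receptor and adaptors had shares of 38.5% higher and 0% lower, and counted 6 and 4 with library totals. Irak3 did not pass with library totals.

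Several other Toll-like receptor genes, for sensors of lipoproteins and microbial nucleic acids, rose. Of 12 tested genes of the list 7 rose and 1 fell, the same numbers without LPS replicate 3. Tlr3, the sensor of double-stranded RNA, showed the largest rise, from 9.8, 8.69 and 6.93 CPM to 159, 137 and 189 CPM (18.9-fold, log2 4.24 ± 0.37, adjusted p = 4.8e-05), with each LPS library above each vehicle library. Tlr2, the receptor for bacterial lipoproteins, rose 6.12-fold (adjusted p = 0.0048), and its partners Tlr1 and Tlr6 5.75-fold and 4.46-fold. Tlr9, for bacterial DNA, rose 3.43-fold, and Tlr7, for single-stranded RNA, 2.71-fold. Cd180, a TLR4-like protein without a signalling domain, rose 2.83-fold (adjusted p = 0.0051). The fall was that of Tlr13, a sensor of bacterial ribosomal RNA, from 102, 61.8 and 70.9 to 30.3, 21.6 and 9.73 CPM (3.59-fold lower, adjusted p = 0.015). Tlr8 did not pass at 251, 162 and 234 against 260.0, 219 and 187 CPM. Toll-like receptors had shares of 58.3% higher and 8.33% lower, and counted 1 and 2 with library totals and 4 higher without vehicle replicate 1. Tlr2, Tlr1, Tlr6, Tlr9, Tlr7 and Cd180 did not pass with library totals. Tlr1 lost its call without vehicle replicate 2 or 3 or LPS replicate 1 (adjusted p 0.053 to 0.065), Tlr6 without vehicle replicate 1 or 2 or LPS replicate 1 (adjusted p 0.057 to 0.1), Tlr9 without vehicle replicate 1 (adjusted p = 0.053), Tlr7 without any 1 of the vehicle libraries (adjusted p 0.053 to 0.072), and Tlr13 without vehicle replicate 1 or 3 (adjusted p 0.059 to 0.086).

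Subunits and inhibitors of NF-kB rose together. Of 16 tested members 13 rose (14 without LPS replicate 3), with a median of log2 3.02 against -0.14 for all genes. All 5 subunits passed: Nfkb1 rose 13-fold, Nfkb2 9-fold, Rel 10-fold, Rela 4.15-fold and Relb 3.56-fold. Nfkbia, the inhibitor that NF-kB makes to end its own activity, was at 500.2, 576 and 506 CPM and then at 9566, 8599 and 11133 CPM. That is 18.5-fold (log2 4.21 ± 0.42, adjusted p = 9.9e-05), with close values within both groups. Its relatives Nfkbib and Nfkbie rose 6.63-fold and 21.3-fold. Tnfaip3, the ubiquitin-editing brake A20, showed the largest rise of the list, from 12.8, 12.7 and 8.51 to 590.2, 523 and 644 CPM (51.6-fold, adjusted p = 1.8e-05). Its partners Tnip1 and Tnip3 rose 7.27-fold and 16.2-fold, and the nuclear co-regulator Bcl3 6.72-fold. Nfkbid, Cyld and Otulin did not pass with all libraries (log2 -0.36, 0.77 and -0.55). NF-kB subunits and inhibitors had shares of 81.2% higher and 0% lower, and counted 11 and 1 with library totals. Rela and Relb did not pass with library totals. Relb lost its call without vehicle replicate 3 (adjusted p = 0.063). Nfkbib stood at log2 2.08 without LPS replicate 1, and Bcl3 at 1.88 without LPS replicate 3.

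Of 19 tested AP-1, EGR and other immediate early factors 8 rose and 1 fell at 4 h (10 and 1 without LPS replicate 3), with a median of log2 1.10 against -0.14 for all genes. Fos and Jun, the founding AP-1 subunits, stood at log2 0.81 and -1.13, Egr1 at 0.23, Egr2 at -0.15 and Myc at 1.10, and none of these 5 passed. Nr4a1, an immediate early nuclear receptor, fell, with counts of 36, 9 and 18 in vehicle libraries and 1, 0 and 0 after LPS. Junb rose 8.27-fold, Maff 43.9-fold and Cebpb, a partner of NF-kB at cytokine genes, 4.75-fold (adjusted p = 0.0021). Batf2, an AP-1-like factor of the interferon response, had levels of 1.33, 0.669 and 2.52 CPM and then 131, 89.6 and 87.6 CPM (64.1-fold, adjusted p = 5.0e-05), without overlap, and Klf6 rose 6.43-fold (adjusted p = 0.0013). AP-1, EGR and other immediate early factors had shares of 42.1% higher and 5.26% lower, and counted 7 and 3 with library totals. Nr4a1 lost its call without any 1 of the vehicle libraries or LPS replicate 1 or 2 (adjusted p 0.058 to 0.067), and Junb without any 1 of the vehicle libraries (adjusted p 0.059 to 0.093). Junb and Maff stood at log2 1.50 and 3.27 without LPS replicate 3.

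MAP kinase phosphatases and mRNA decay factors, both brakes on cytokine output, split within their families. Dusp1, which inactivates p38 and JNK, rose 8.78-fold (log2 3.13 ± 0.32, adjusted p = 0.00012), Dusp2, a nuclear phosphatase, went from 2.47, 1.34 and 0.788 to 163, 81.1 and 72 CPM (64.9-fold) and Dusp5, an ERK phosphatase, rose 21-fold. Dusp3 fell 5.2-fold (adjusted p = 0.0028), and Dusp4 and Dusp6 did not pass (log2 0.35 and -0.90). Zfp36, which encodes tristetraprolin and destroys Tnf mRNA, rose 6.56-fold (adjusted p = 0.00068), and the nuclease gene Zc3h12a rose 7.66-fold. The paralogs of Zfp36 went the other way: Zfp36l1 stood at 438, 1499 and 904 CPM and then at 30.9, 81.7 and 241 CPM, a fall of 8.26-fold (adjusted p = 0.015), and Zfp36l2 fell 8.68-fold (adjusted p = 0.00096). Of 10 tested phosphatases 4 rose and 1 fell (4 and 2 without LPS replicate 3), and of 11 decay factors 4 rose and 2 fell (3 and 2). MAP kinase phosphatases had shares of 40% higher and 10% lower, and counted 3 and 2 with library totals. mRNA decay factors had shares of 36.4% higher and 18.2% lower, and counted 3 and 3 with library totals. Zfp36l1 lost its call without vehicle replicate 2 or 3 or LPS replicate 2 (adjusted p 0.052 to 0.066). Dusp2 stood at log2 6.66 without vehicle replicate 1, and Dusp5, Zc3h12a and Zfp36l1 at 3.21, 1.98 and -4.13 without LPS replicate 3.

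Most cytokine transcripts with enough counts rose steeply. Of 21 listed interleukins and colony-stimulating factors 13 were tested, of which 11 rose and 1 fell, with a median of log2 5.28. Without LPS replicate 3, 12 rose and 1 fell of 15 tested. Il1a, an alarm cytokine, stood at 0.19, 0.669 and 0.473 CPM in vehicle libraries and at 379, 298 and 54.5 CPM after LPS, lowest in LPS replicate 3 yet far above all vehicle libraries (608-fold, log2 9.25 ± 0.90, adjusted p = 9.1e-05). Il1rn, the antagonist of the same receptor, rose 100.3-fold, to 940.1, 699 and 640.3 CPM. Il27, which restrains T cells, rose 354-fold (log2 8.47 ± 0.59, adjusted p = 2.0e-05) and Ebi3, which encodes its partner chain, 5.23-fold. Il10, the main anti-inflammatory cytokine, had 11, 0 and 0 counts before and 54, 30 and 11 after, 38.1-fold higher (adjusted p = 0.0056). Il15 and Il18, which act on NK cells, rose 25.2-fold and 8.68-fold, and Csf1, which encodes M-CSF, 38.9-fold (adjusted p = 0.00088). Il16, a T cell attractant, fell 13.5-fold. Csf2 and Csf3, the granulocyte growth factors, were near 0, with 0 and 0 counts over the vehicle libraries and 0 and 4 over the LPS libraries, and were not tested. Il23a and Lif were also below the filter, with 3 and 6 counts before and 16 and 15 after. Interleukins had shares of 84.6% higher and 7.69% lower, and counted 11 and 1 with library totals. Il16 lost its call without any 1 of the vehicle libraries (adjusted p 0.078 to 0.097). Il10 stood at log2 8.77 without vehicle replicate 1, Csf1 at 6.11 without vehicle replicate 3, Il16 at -4.48 without LPS replicate 1, and Il16 at -3.14 without LPS replicate 2.

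Chemokines that draw monocytes, T cells and neutrophils rose in both families, 10 of 12 tested CC chemokines and 7 of 9 CXC chemokines (10 and 9 without LPS replicate 3), each with a median of log2 6.57. Cxcl10, which attracts T cells and NK cells, went from 6.94, 8.02 and 10.4 CPM to 15033, 5315 and 4042 CPM (959-fold, log2 9.91 ± 0.77, adjusted p = 2.7e-05; Entrez gene 15945, chromosome 5 from 92346638 to 92348889 in GRCm38). LPS replicate 1 was the highest of the 3, and all were far above vehicle. Cxcl11, a ligand of the same receptor, had 9 counts over the vehicle libraries and 1976 after LPS, 679-fold higher on the scaled values. Cxcl1, Cxcl2 and Cxcl3, which attract neutrophils, rose 84.6-fold, 94.8-fold and 100.4-fold. Ccl3 and Ccl4, macrophage inflammatory proteins, rose 57.5-fold and 186-fold (adjusted p = 2.0e-05 and 2.0e-05), Ccl7 158-fold and Ccl12, a monocyte attractant, from 10 to 761 counts (275-fold). Ccl22, which attracts regulatory T cells, was at 0 in every vehicle library and at least 129-fold higher over the group. Ccl9 rose 4.22-fold, while Ccl6, another chemokine that resting macrophages make, did not pass (log2 -0.74 ± 0.30, adjusted p = 0.11). Pf4 passed without LPS replicate 3 but not with all libraries (log2 0.59 with all libraries). CC chemokines had shares of 83.3% higher and 0% lower, and counted 10 and 1 with library totals. CXC chemokines had shares of 77.8% higher and 0% lower, and counted 6 and 0 with library totals. Cxcl10 stood at log2 9.01 without LPS replicate 1, and Cxcl3, Ccl7 and Ccl12 at 11.22, 8.25 and 11.58 without vehicle replicate 1.

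**Figure D2:**
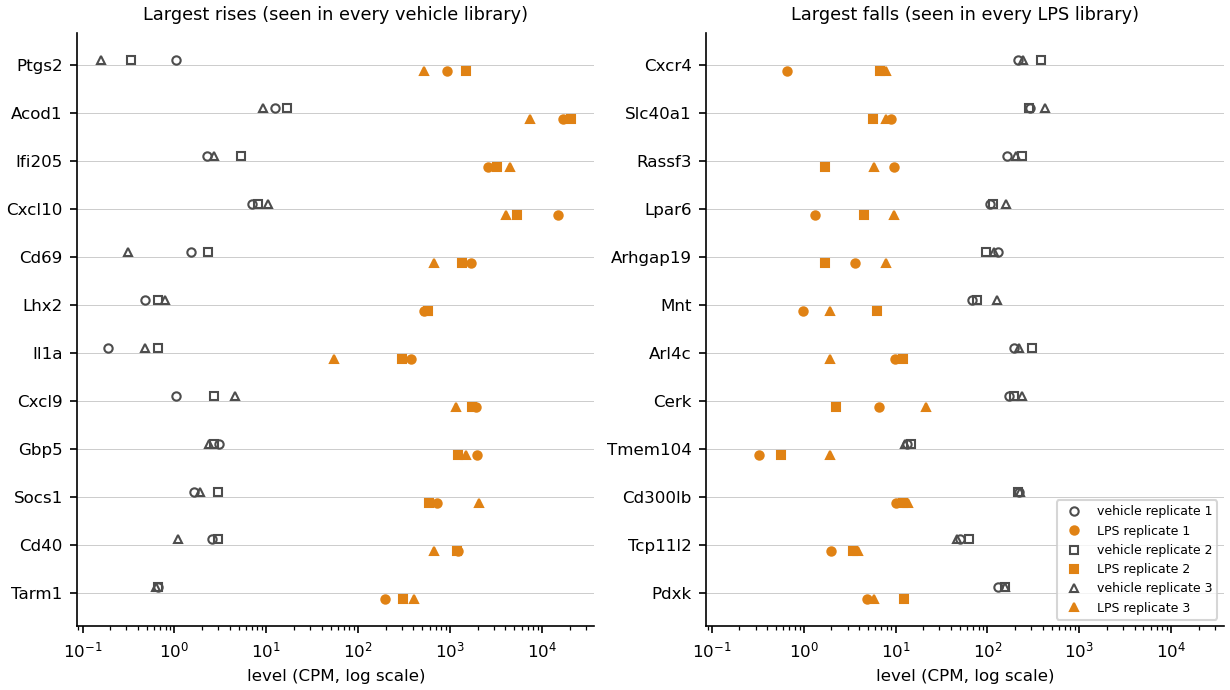
Levels of the 12 genes with the largest rises (left, genes seen in every vehicle library) and the 12 with the largest falls (right, genes seen in every LPS library), in CPM on a log axis. Open grey marks are vehicle libraries and filled orange marks LPS libraries, with a shape for each replicate number, and for every gene drawn the 2 groups are apart.

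Of 7 tested chemokine receptor genes 3 rose and 1 fell, which was 3 and 2 without LPS replicate 3 and 1 and 2 with RLE scaling. Cxcr4, which holds marrow cells in their niche, fell from 216, 379.7 and 246 CPM to 0.658, 6.81 and 7.79 CPM (67.3-fold lower, log2 -6.07 ± 0.73, adjusted p = 0.00032; Entrez gene 12767, chromosome 1 from 128588199 to 128592299). It was the largest fall among genes seen in every LPS library. Ccr2, the monocyte receptor for Ccl2, was at 39, 24.7 and 61.4 and 9.55, 22.1 and 3.89 CPM and passed as lower without LPS replicate 3 but not with all libraries (log2 -1.48, adjusted p = 0.041; adjusted p = 0.064 with all libraries). Ccrl2, an atypical receptor that does not signal, rose 79.8-fold (log2 6.32 ± 0.55, adjusted p = 4.8e-05). Cx3cr1, the fractalkine receptor, did not pass (log2 -1.51), and Ccr7, with 4 counts before and 14 after, was not tested. The list's median of log2 0.65 turned to -0.59 without LPS replicate 3 and -0.44 with library totals. Chemokine receptors had shares of 42.9% higher and 14.3% lower, and counted 1 and 3 with library totals and 1 higher without vehicle replicate 1. Cxcr4 stood at log2 -5.38 without LPS replicate 1, Cxcr4 at -6.93 without LPS replicate 2, and Ccrl2 at 5.63 without LPS replicate 3.

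Ligands of the TNF family and costimulatory molecules rose in 12 of 13 tested genes (13 without LPS replicate 3). Cd69, an early activation antigen, went from 1.52, 2.34 and 0.315 to 1679, 1354 and 666 CPM (933-fold, log2 9.87 ± 0.76, adjusted p = 2.6e-05). Cd274, which encodes the checkpoint ligand PD-L1, rose 73.8-fold (adjusted p = 1.8e-05), from 29.3, 28.7 and 20.3 CPM to 1751, 1624 and 2409 CPM. Cd86 and Cd83, found on antigen-presenting cells, rose 21.2-fold and 29.4-fold. Cd80, the other B7 ligand, was below the filter, with 18, 5 and 9 counts in vehicle libraries and 32, 19 and 1 after LPS. The death ligand Tnfsf10 and the T cell ligand Tnfsf9 rose 82.1-fold and 81.2-fold, and the death receptor Fas 13.7-fold (adjusted p = 0.00075). Of the TNF receptors Tnfrsf1b rose 4.81-fold (adjusted p = 0.012), and Tnfrsf1a did not pass (log2 1.22 ± 0.51, adjusted p = 0.12). TNF family and costimulation had shares of 92.3% higher and 0% lower, and counted 11 and 0 with library totals. Tnfrsf1b did not pass with library totals. Tnfrsf1b lost its call without vehicle replicate 1 or 3 (adjusted p 0.067 to 0.079). Tnfrsf1b stood at log2 1.63 without LPS replicate 3.

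Interferon beta mRNA was counted only in the LPS libraries. Ifnb1 had 0, 0 and 0 counts in the vehicle libraries and 54, 31 and 6 after LPS, at least 113-fold higher over the group (adjusted p = 0.00092). The RNA sensor genes rose with it: Ddx58, which encodes RIG-I, by 12-fold, Ifih1, which encodes MDA5, by 48.9-fold and Dhx58 by 14.1-fold. Cgas, the DNA sensor, rose 7.51-fold (adjusted p = 0.00030), but its downstream adaptor Sting1 did not pass (log2 0.77 ± 0.49, adjusted p = 0.3), nor did Mavs, the adaptor of the RNA sensors (log2 -1.26). Zbp1, a sensor that can start cell death, rose from 9.99, 4.35 and 8.35 to 217, 165 and 154 CPM (23.1-fold), and the bacterial peptide sensors Nod1 and Nod2 rose 31.6-fold and 21.2-fold. Of 14 tested genes 12 rose, the same number without LPS replicate 3. Type I interferon production and sensors had shares of 85.7% higher and 0% lower, and counted 11 and 1 with library totals. Dhx58 stood at log2 3.15 without LPS replicate 3.

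Of 24 tested interferon receptor, IRF, STAT and SOCS genes 13 rose (16 rose and 1 fell without LPS replicate 3), with a median of log2 2.02. Stat2 rose 9.62-fold, Stat3 11.5-fold and Stat5a 17.1-fold (adjusted p = 0.0031, 0.00042 and 0.00015), and Stat6, which answers to IL-4, did not pass (log2 -0.78 ± 0.36, adjusted p = 0.15). Irf7, the factor that amplifies interferon production, rose 12.4-fold (adjusted p = 9.4e-05) and Irf8, a macrophage and dendritic cell factor, 8.47-fold. Irf3, which TRIF activates through its protein, did not pass (log2 -0.52). Irf9, which completes the STAT complex, passed without LPS replicate 3 but not with all libraries (log2 0.85, adjusted p = 0.045; adjusted p = 0.056 with all libraries). Jak2, a receptor kinase, rose 23.9-fold (adjusted p = 2.7e-05). Socs1, the brake on interferon receptors, went from 1.62, 3.01 and 1.89 to 716, 589.8 and 2046 CPM (532-fold, log2 9.06 ± 0.70, adjusted p = 2.7e-05), highest in LPS replicate 3 and separate from vehicle in all. Ifnar1 rose 4.78-fold, while Ifnar2, Ifngr1 and Ifngr2 did not pass with all libraries (log2 1.07, -0.50 and 0.50). Interferon receptors, IRFs, STATs and SOCS had shares of 54.2% higher and 0% lower, and counted 10 and 2 with library totals. Ifnar1 did not pass with library totals. Ifnar1 lost its call without any 1 of the vehicle libraries (adjusted p 0.054 to 0.1). Stat2 stood at log2 3.99 without vehicle replicate 2, and Irf8, Socs1 and Ifnar1 at 2.20, 8.30 and 1.24 without LPS replicate 3.

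Of 29 tested antiviral effector genes 25 rose (27 rose and 1 fell without LPS replicate 3), with a median of log2 4.57 that was 3.56 with library totals. Ifit1, which binds foreign RNA caps, stood at 78.9, 62.8 and 39.5 CPM before and 11047, 10495 and 33564 CPM after LPS (304-fold, log2 8.25 ± 0.77, adjusted p = 7.2e-05; Entrez gene 15957, chromosome 19 from 34640889 to 34650009). Its neighbours Ifit2 and Ifit3 rose 118-fold and 55.4-fold. Isg15, a ubiquitin-like modifier, rose 130.0-fold, and Usp18, which removes it, 60.6-fold. Mx1, a GTPase that blocks viral replication, rose 144-fold, Oasl1 151-fold and Cmpk2, the nucleotide kinase gene next to Rsad2, from 20.4, 14.7 and 11.2 to 4254, 4519.9 and 2583 CPM (244-fold, adjusted p = 1.8e-05). The 2'-5' oligoadenylate synthetase genes Oas2 and Oas3 rose less, 5.38-fold and 5.89-fold, and Oas1a passed without LPS replicate 3 but not with all libraries. Bst2, which tethers virions, rose 5.62-fold. Antiviral effectors had shares of 86.2% higher and 0% lower, and counted 24 and 1 with library totals. Ifit1 and Isg15 stood at log2 7.45 and 5.96 without LPS replicate 3, Isg15 at 7.94 without vehicle replicate 2, and Oas3 at 1.95 without LPS replicate 1.

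The interferon-inducible GTPases attack pathogen vacuoles. Of 15 listed members 11 were tested, and all 11 rose (also with library totals), with a median of log2 5.85. Without LPS replicate 3, 12 of 12 tested rose. Gbp2 and Gbp3 rose 173-fold and 119-fold and Gbp7 57.5-fold. Iigp1, an IRG GTPase, went from 5.99, 2.34 and 9.92 CPM to 3049, 2025 and 891 CPM (317-fold, log2 8.31 ± 0.74, adjusted p = 5.5e-05). The regulatory IRG members Irgm1, Irgm2 and Igtp rose 23.5-fold, 11.3-fold and 34.6-fold. Tgtp1 and Gvin1, with 5 and 0 counts after LPS, were not tested, and reads of such near-identical copies may have been split or dropped by the counting. Gbp6 and Gbp8 were also below the filter, with 6 and 25 counts over the vehicle libraries and 331 and 37 after LPS. Guanylate-binding proteins and IRG GTPases had shares of 100% higher and 0% lower.

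Genes for MHC class I loading rose, and no class II gene passed. On the class I side 13 of 16 tested members rose (14 without LPS replicate 3), with a median of log2 2.46. The peptide transporter genes Tap1 and Tap2 rose 12.9-fold and 12.7-fold, Tapbp, the loading factor tapasin, 4.81-fold, and the immunoproteasome subunits Psmb8, Psmb9 and Psmb10 5.3-fold, 8.27-fold and 7.2-fold. Nlrc5, which switches on class I genes, rose from 13.7, 5.01 and 12.1 to 161, 88.5 and 95.4 CPM (11-fold, adjusted p = 0.00077). H2-K1, a class I heavy chain, had 2462, 5043 and 2354 CPM and then 7415, 7325 and 41991 CPM. It rose 5.75-fold, with LPS replicate 3 far above the other 2, and B2m, the light chain, rose 2.32-fold (adjusted p = 0.042). Among 8 tested members of the class II presentation list, edgeR called 0 higher and 0 lower, and 0 and 0 had an unadjusted p under 0.05. DESeq2 called 0 and 0, and limma-voom 0 and 0. Cd74, the class II chaperone, stood at 59, 49.8 and 48.5 and 70.8, 54.4 and 74 CPM (log2 0.33 ± 0.33), H2-Aa at 49.8, 55.8 and 44.7 and 47.4, 31.2 and 31.1 CPM (log2 -0.43 ± 0.36), and the ranges overlapped for both. Ciita, the class II transactivator, had 60 counts over the vehicle libraries and 8 after LPS, below the filter. With library totals 2 members of the class II presentation list, H2-Aa and Lgmn, passed as lower. MHC class I loading and immunoproteasome had shares of 81.2% higher and 0% lower, and counted 7 and 0 with library totals and 7 higher without vehicle replicate 2. MHC class II presentation had shares of 0% higher and 0% lower, and counted 0 and 2 with library totals. B2m did not pass with RLE scaling. H2-K1 and B2m did not pass with library totals. H2-K1 lost its call without any 1 of the vehicle libraries (adjusted p 0.091 to 0.19), and B2m without any 1 of the vehicle libraries or LPS replicate 1 or 2 (adjusted p 0.073 to 0.18). H2-K1 stood at log2 1.13 without LPS replicate 3.

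Inflammasome genes mostly rose, and those of some sensors fell. Casp1, the caspase that cuts IL-1 beta, rose 6.62-fold and Casp4, which binds LPS inside the cell, 11.5-fold (adjusted p = 0.00091 and 0.00018). Mefv, which encodes the sensor pyrin, rose 28.1-fold, Aim2, a DNA sensor, 6.18-fold, and Gsdmd, the pore former, 3.79-fold. Nlrc4, the sensor of flagellin, fell from 30.4, 14 and 33.6 to 6.25, 2.27 and 0 CPM (7.14-fold lower), and Nlrp1b fell from 18.2, 19.4 and 16.9 to 1.32, 0.567 and 0 CPM (20.1-fold lower, adjusted p = 0.0031). Il18bp, which neutralises IL-18, rose 5.14-fold, and Nek7, the licensing kinase of Nlrp3, did not pass (log2 -0.08). In all 9 of 14 rose and 2 fell (10 and 2 without LPS replicate 3). Inflammasome and pyroptosis had shares of 64.3% higher and 14.3% lower, and counted 6 and 2 with library totals. Gsdmd did not pass with RLE scaling. Gsdmd and Il18bp did not pass with library totals. Gsdmd lost its call without vehicle replicate 2 or 3 or LPS replicate 1 (adjusted p 0.096 to 0.18), and Nlrc4 without vehicle replicate 1 or 3 or LPS replicate 2 (adjusted p 0.055 to 0.12). Gsdmd stood at log2 2.66 without vehicle replicate 1, and Nlrc4 and Nlrp1b at -4.04 and -5.38 without LPS replicate 1.

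Of 12 tested genes for nitric oxide, arginine and itaconate 4 rose, with or without LPS replicate 3, namely Slc7a2, Gch1, Nos2 and Acod1, and the other 8 did not pass. Slc7a2, which imports arginine, went from 5.9, 9.03 and 5.2 CPM to 875, 899 and 1615 CPM (171-fold, log2 7.41 ± 0.50, adjusted p = 1.8e-05), and Gch1, which starts synthesis of the cofactor tetrahydrobiopterin, rose 13.9-fold (adjusted p = 7.2e-05). The next 2 enzymes of the cofactor pathway, Pts and Spr, did not pass (log2 -1.03 and -0.98). Nos2 itself had 0, 0 and 0 counts before and 647, 373 and 23 after, at least 1299-fold higher. Acod1, the itaconate-making enzyme, stood at 12.4, 16.7 and 9.14 and 16994, 20734 and 7493 CPM. Arg1, the competing arginase, had 12 counts over the vehicle libraries and 0 after LPS and was not tested, and Arg2 did not pass (log2 0.26). Ass1, which recycles citrulline, had 2 and 1 counts. Nitric oxide, arginine and itaconate had shares of 33.3% higher and 0% lower, and counted 4 and 1 with library totals.

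Of 16 tested prostaglandin and leukotriene genes 5 rose and 3 fell (6 and 4 without LPS replicate 3). Pla2g4a, which frees arachidonic acid, rose 15.3-fold (adjusted p = 0.001), and Ptges, the inducible prostaglandin E synthase, from 1.05, 2.34 and 0.158 to 68.1, 55.6 and 23.4 CPM (47.3-fold, adjusted p = 0.00089), beside Ptgs2. Ptger4, a receptor for prostaglandin E2, rose 3.25-fold. Hpgds, which makes prostaglandin D2, fell from 219.8, 199 and 185 to 40.8, 43.1 and 50.6 CPM (4.53-fold lower, adjusted p = 0.00095), and Hpgd, which degrades prostaglandins, fell 7.54-fold (adjusted p = 0.025). On the leukotriene side Alox5ap and Lta4h stood at log2 -0.90 and -1.14 and did not pass with all libraries. Prostaglandins and leukotrienes had shares of 31.2% higher and 18.8% lower, and counted 3 and 7 with library totals, 3 higher without vehicle replicate 1 and 1 lower without vehicle replicate 1. Ptger4 did not pass with library totals. Ptger4 lost its call without any 1 of the vehicle libraries or LPS replicate 1 (adjusted p 0.063 to 0.07), and Hpgd without any 1 of the vehicle libraries or LPS replicate 2 (adjusted p 0.062 to 0.13). Ptges stood at log2 6.19 without vehicle replicate 2, Ptges at 4.97 without vehicle replicate 3, Hpgd at -2.29 without LPS replicate 1, and Hpgd at -4.01 without LPS replicate 3.

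**Figure D3:**
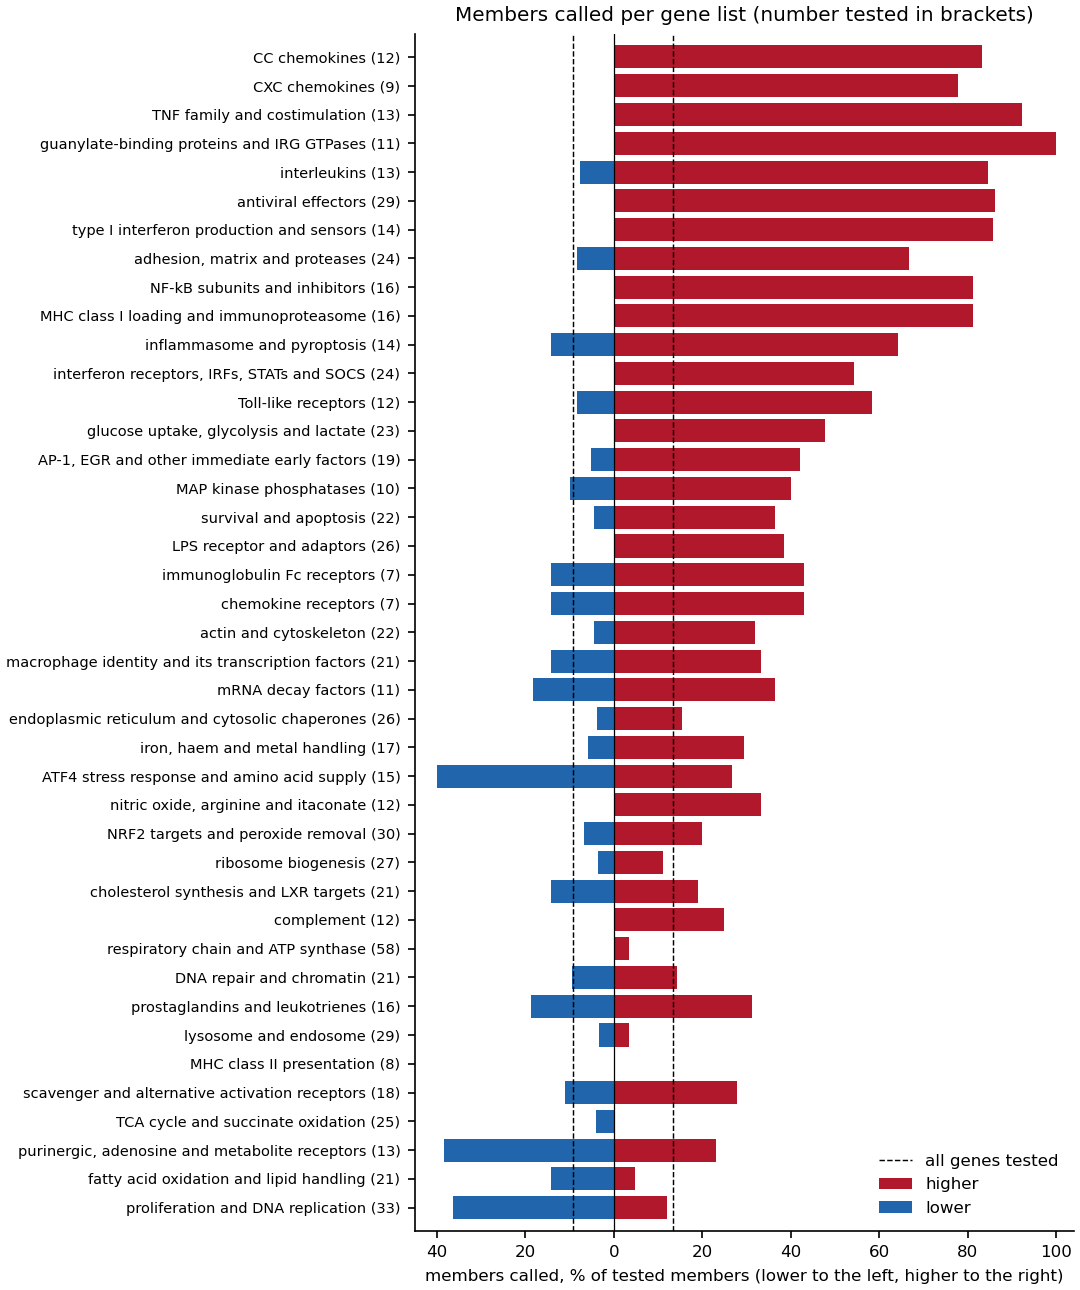
Share of the tested members of each of 41 gene lists that passed as higher (red, to the right) or lower (blue, to the left), with the number tested in brackets and the lists in order of their median log2 fold change. Dashed lines mark the shares among all tested genes, 13.4% higher and 9.19% lower, and the interferon-inducible GTPases reach 100% on the right.

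Of 23 tested genes of glucose uptake, glycolysis and lactate 11 rose (12 rose and 1 fell without LPS replicate 3), and the median of log2 1.21 became 0.20 with library totals. The glucose transporter gene Slc2a1 rose 4.12-fold (adjusted p = 0.0059), and Slc2a6, a lysosomal hexose transporter, went from 4.37, 7.35 and 6.62 to 353, 349.9 and 251 CPM (52.7-fold, adjusted p = 2.0e-05). Hk2 and Hk3, which trap glucose by phosphorylation, rose 8.43-fold and 4.08-fold, and Pfkp, a phosphofructokinase, 4.24-fold. Slc16a1, which exchanges lactate, rose 9.55-fold (adjusted p = 0.0016). Of the enzymes further down the pathway Aldoa, Tpi1, Pgam1, Pkm and Ldha stood at log2 -0.17, 0.26, 0.03, -0.01 and 0.24, and none passed. Slc2a3, another glucose transporter gene, had 40 counts over the vehicle libraries and 0 after LPS, and Pfkm, another phosphofructokinase gene, 79 and 10, and these were not tested. Gapdh and Eno1, which have near-identical copies in the genome, had 970 and 0 counts over the vehicle libraries, and their values are uncertain. Glucose uptake, glycolysis and lactate had shares of 47.8% higher and 0% lower, and counted 4 and 4 with library totals. Slc2a1, Hk3 and Pfkp did not pass with library totals. Hk2 stood at log2 2.39 without LPS replicate 3.

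Few mitochondrial genes passed on this scale. Of 25 tested TCA cycle genes 1 fell (1 rose and 3 fell without LPS replicate 3), which was Idh1, the cytosolic isocitrate dehydrogenase, with 402, 313 and 411 CPM before and 103, 100.4 and 77.9 CPM after LPS. Rises numbered 0 by edgeR, 0 at an unadjusted p under 0.05, 0 by DESeq2 and 1 by limma-voom. Of the enzymes inside mitochondria, Cs, Ogdh, Sdhb, Fh1 and Mdh2 stood between log2 -0.71 and 0.81 and did not pass. Of 58 respiratory chain and ATP synthase subunits 2 rose (2 rose and 1 fell without LPS replicate 3), against 13.4% among all genes. They were Cycs, cytochrome c, at 44.3, 20.4 and 28.7 and 227, 112 and 276 CPM (6.51-fold, adjusted p = 0.0024), and Ndufs4, an assembly subunit of complex I, 2.38-fold (adjusted p = 0.023). The medians were log2 -0.44 and -0.11, against -0.14 for all genes, and with library totals 10 and 18 of their members passed as lower, at medians of -1.42 and -1.04. TCA cycle and succinate oxidation had shares of 0% higher and 4% lower, and counted 0 and 10 with library totals. Respiratory chain and ATP synthase had shares of 3.45% higher and 0% lower, and counted 1 and 18 with library totals. Ndufs4 did not pass with library totals. Ndufs4 lost its call without any 1 of the vehicle libraries (adjusted p 0.081 to 0.11).

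Of 21 tested sterol genes 4 rose and 3 fell (5 and 4 without LPS replicate 3), and of 21 fatty acid genes 1 rose and 3 fell (1 and 7). Ch25h, which makes 25-hydroxycholesterol, went from 0.38, 0 and 1.73 CPM to 153, 284 and 149.9 CPM (246-fold, log2 7.95 ± 0.78, adjusted p = 9.2e-05). The cholesterol exporter Abcg1, an LXR target like Abca1, fell 2.41-fold (adjusted p = 0.02), from 253, 214 and 318 to 108, 132 and 83.7 CPM. Insig1, which restrains sterol synthesis, rose 5.85-fold (adjusted p = 0.033). In fatty acid handling Acadm, a dehydrogenase of beta-oxidation, fell from 86.4, 80.6 and 77.2 to 18.4, 16.4 and 9.73 CPM (5.22-fold lower, adjusted p = 0.0016), and the fatty acid carrier Fabp5 fell 2.53-fold. Pparg, the nuclear receptor of lipid uptake, had 500, 71 and 411 counts before and 3, 0 and 0 after. Lpl, lipoprotein lipase, did not pass at 4404, 3323 and 4357 against 5414, 5239.6 and 3342 CPM, and neither did the uptake receptor Cd36 (log2 -0.56) or Cpt1a (log2 -0.30). Cholesterol synthesis and LXR targets had shares of 19% higher and 14.3% lower, and counted 2 and 6 with library totals, 2 higher without vehicle replicate 1 and 0 lower without vehicle replicate 3. Fatty acid oxidation and lipid handling had shares of 4.76% higher and 14.3% lower, and counted 0 and 11 with library totals and 1 and 6 with RLE scaling. Insig1 did not pass with library totals. Abcg1 lost its call without vehicle replicate 1 or 3 or LPS replicate 1 (adjusted p 0.051 to 0.11), Insig1 without any 1 of the vehicle libraries (adjusted p 0.087 to 0.15), and Fabp5 without any 1 of the vehicle libraries or LPS replicate 2 (adjusted p 0.066 to 0.16). Ch25h stood at log2 9.31 without vehicle replicate 3, and Insig1 at 0.96 without LPS replicate 3.

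Of 30 tested genes of NRF2 targets and peroxide removal 6 rose and 2 fell (without LPS replicate 3, 8 and 2), with a median of log2 0.12. Sod2, the mitochondrial superoxide dismutase, stood at 86.2, 90.9 and 54.3 CPM in vehicle libraries and 1894, 1796 and 1450.0 CPM after LPS (22.2-fold, log2 4.47 ± 0.39, adjusted p = 4.9e-05). Gsr, which regenerates glutathione, rose 4.24-fold, and Txn1, thioredoxin, 3.52-fold (adjusted p = 0.0048 and 0.003). Gclc, the catalytic subunit that starts glutathione synthesis, fell from 48.4, 31.4 and 83.8 to 17.8, 18.7 and 1.95 CPM (3.83-fold lower, adjusted p = 0.045), and Gpx1, a glutathione peroxidase, fell 2.06-fold. Prdx1, a peroxiredoxin, had 8966, 15118 and 10265 CPM before and 47228, 42657 and 327039.6 CPM after, 12.1-fold with all libraries and log2 1.94 without LPS replicate 3 (adjusted p = 0.0013). Nqo1, Hmox1 and Gclm, classical NRF2 targets, did not pass (log2 2.00 ± 0.72, log2 0.40 ± 0.39 and log2 -0.25 ± 0.43), nor did Nfe2l2, which encodes NRF2 (log2 0.07 ± 0.65). NRF2 targets and peroxide removal had shares of 20% higher and 6.67% lower, and counted 4 and 7 with library totals. Txn1 did not pass with library totals. Gclc and Gpx1 lost their calls without any 1 of the vehicle libraries or LPS replicate 1 or 2 (adjusted p 0.054 to 0.24), and Prdx1 without any 1 of the vehicle libraries (adjusted p 0.11 to 0.13). Prdx1 stood at log2 1.94 without LPS replicate 3.

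Among genes for iron and other metals, the exporter fell and binding proteins of other metals rose. Slc40a1, ferroportin, the only known iron exporter, stood at 291, 282 and 422 CPM in vehicle libraries and 8.89, 5.67 and 7.79 CPM after LPS (44.2-fold lower, log2 -5.47 ± 0.41, adjusted p = 2.3e-05; Entrez gene 53945, chromosome 1 from 45908070 to 45926532). All 3 LPS libraries were below 10 CPM. The ferritin chains Fth1 and Ftl1 did not pass, at log2 0.15 ± 0.52 and log2 -1.88 ± 1.13. Ftl1 spread widely within both groups, at 4625, 631 and 3646 CPM before and 1650.4, 739.5 and 15.6 CPM after. Mt1 and Mt2, the zinc-binding metallothioneins, rose 4.03-fold and 35.8-fold (adjusted p = 0.0018 and 2.7e-05), Slc39a14, which imports zinc and iron, 7.94-fold, and Cp, the ferroxidase ceruloplasmin, 61.6-fold (adjusted p = 2.1e-05). Tfrc, the transferrin receptor, passed as lower without LPS replicate 3 but not with all libraries (log2 -1.10 with all libraries). Of 17 tested 5 rose and 1 fell (6 and 2 without LPS replicate 3). Iron, haem and metal handling had shares of 29.4% higher and 5.88% lower, and counted 3 and 5 with library totals. Mt1 did not pass with library totals.

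Complement and Fc receptor genes rose in part. C3, the central complement protein, rose 24.6-fold and Cfb, factor B of the alternative pathway, 168-fold, from 1.33, 0 and 0.473 to 182, 95.3 and 117 CPM (adjusted p = 2.2e-05 and 7.7e-05). The C1q chains C1qa, C1qb and C1qc did not pass (log2 0.08, -0.05 and -0.53), although C1qa passed as lower with library totals (log2 -0.96), nor did C3ar1, the receptor for C3a (log2 -0.15). Fcgr1, the high-affinity IgG receptor, rose 5.82-fold, the inhibitory Fcgr2b 8.97-fold and Fcgr4 6.56-fold (adjusted p = 0.00031, 0.00042 and 0.0025), while Fcgr3 did not pass (log2 -0.37). Fcgrt, the neonatal Fc receptor that recycles IgG, fell 2.83-fold (adjusted p = 0.0093). Counts were 3 of 12 higher for complement and 3 higher and 1 lower of 7 for Fc receptors (3, 4 and 1 without LPS replicate 3). Complement had shares of 25% higher and 0% lower, and counted 2 and 5 with library totals. Immunoglobulin Fc receptors had shares of 42.9% higher and 14.3% lower, and counted 3 and 2 with library totals. Cfb stood at log2 8.56 without vehicle replicate 1, and Fcgr4 at 2.11 without LPS replicate 3.

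Scavenger and lectin receptors rose and fell. Clec4e, which encodes Mincle, a sensor of mycobacterial lipid, went from 3.9, 0.669 and 2.84 to 482, 368 and 311 CPM (143-fold, log2 7.16 ± 0.58, adjusted p = 3.3e-05), and Msr1, scavenger receptor A, rose 11.7-fold (adjusted p = 6.0e-05). Gpr84, a receptor for medium-chain fatty acids, had 6 counts before and 178 after, 93.5-fold higher. Stab1, a scavenger receptor of alternatively activated cells, fell 3.92-fold and Gas6, a bridge to dying cells, 2.98-fold (adjusted p = 0.014 and 0.0082). Mrc1, the mannose receptor, and Clec7a, which encodes dectin-1, passed as lower without LPS replicate 3 but not with all libraries (log2 -0.58 and -0.85 with all libraries). Trem2 and Tyrobp, its signalling partner, did not pass (log2 -0.61 and -0.72). Of 18 tested members 5 rose and 2 fell (without LPS replicate 3, 7 and 4). Scavenger and alternative activation receptors had shares of 27.8% higher and 11.1% lower, and counted 4 and 8 with library totals and 3 higher without LPS replicate 1. Stab1 lost its call without vehicle replicate 1 or 3 (adjusted p 0.06 to 0.07). Gpr84 stood at log2 9.33 without vehicle replicate 1.

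Factors of the macrophage lineage moved in both directions. Maf, a factor of macrophage differentiation, rose 2.54-fold (adjusted p = 0.015). Cebpa, which acts early in the lineage, fell from 74.9, 134 and 67.6 to 13.2, 2.27 and 1.95 CPM (13.2-fold lower, adjusted p = 0.0032), against a rise of 4.75-fold for Cebpb. Spi1, which encodes the master factor PU.1, rose 2.41-fold. In the MiT family Tfec rose 10.1-fold and Mitf 2.76-fold, whereas Tfeb, which drives lysosome genes, fell 6.28-fold. Csf1r, the receptor for M-CSF, and the macrophage markers Adgre1 and Cd68 did not pass (log2 -0.87, 0.19 and -0.64). Of 21 tested genes 7 rose and 3 fell (10 and 3 without LPS replicate 3). Macrophage identity and its transcription factors had shares of 33.3% higher and 14.3% lower, and counted 3 and 8 with library totals and 3 higher without vehicle replicate 1. Maf, Spi1 and Mitf did not pass with library totals. Maf and Tfeb lost their calls without any 1 of the vehicle libraries or LPS replicate 1 (adjusted p 0.062 to 0.18), Spi1 without any 1 of the vehicle libraries (adjusted p 0.051 to 0.072), and Mitf without any 1 of the vehicle libraries or LPS replicate 1 or 2 (adjusted p 0.068 to 0.15). Cebpa stood at log2 -5.46 without LPS replicate 1, and Tfec at 2.72 without LPS replicate 3.

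Lysosome and endosome genes counted 1 rise and 1 fall among 29 tested (1 and 3 without LPS replicate 3), with a median of log2 -0.31 against -0.14 for all genes. With library totals 19 passed as lower, at a median of -1.36. Ctsb, a cathepsin protease, stood at 6837, 4771 and 6762 and 3964, 3231 and 2520.4 CPM (log2 -0.92 ± 0.39, adjusted p = 0.13), Lamp1, a membrane glycoprotein, at log2 -0.23 ± 0.29 and Grn, progranulin, at log2 0.83 ± 0.59. The 2 called genes were Cln3, a lysosomal membrane protein (log2 1.16) and Neu1, a sialidase (log2 -1.09). Lysosome and endosome had shares of 3.45% higher and 3.45% lower, and counted 0 and 19 with library totals. Cln3 did not pass with library totals. Cln3 and Neu1 lost their calls without any 1 of the vehicle libraries or LPS replicate 1 (adjusted p 0.063 to 0.16).

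Receptors for nucleotides and lipid mediators rose and fell. Adora2a, the adenosine receptor that dampens inflammation, had 1 count over the vehicle libraries and 181 after LPS, a pooled ratio of 676 (119.8 to 26851) (adjusted p = 0.0011). Adora2b rose 25.7-fold (adjusted p = 0.00041). The ATP receptor gene P2rx7 fell 4.57-fold and Entpd1, which encodes the ATP-degrading CD39, 3.94-fold (adjusted p = 0.0019 and 0.0043). S1pr1, a receptor for sphingosine 1-phosphate that guides cell exit from tissue, fell from 52.5, 92.9 and 47.3 CPM to 3.62, 7.94 and 1.95 CPM (13-fold lower, adjusted p = 0.0012), and the proton sensor Gpr65 fell 5.34-fold. In total 3 rose and 5 fell of 13 tested (5 and 5 without LPS replicate 3). Purinergic, adenosine and metabolite receptors had shares of 23.1% higher and 38.5% lower, and counted 2 and 7 with library totals. S1pr1 stood at log2 -4.32 without LPS replicate 2.

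Adhesion molecules and matrix proteases rose in 16 of 24 tested genes and fell in 2, the same numbers without LPS replicate 3. Icam1, the ligand of leukocyte integrins, rose 51.1-fold and Vcam1 26.3-fold (adjusted p = 1.8e-05 and 0.00015). Mmp13, a collagenase, went from 26.4, 28.4 and 28.4 CPM to 2507, 1666 and 4114 CPM (99.5-fold, adjusted p = 2.4e-05), and Mmp14, the membrane-bound activator of other proteases, rose 139-fold. Mmp9 and Mmp12 did not pass (log2 0.61 and 0.14). In coagulation, F10, factor X, rose 23-fold (adjusted p = 0.00086), and Thbd, the anticoagulant thrombomodulin, had 163, 25 and 105 counts before and 0, 0 and 0 after, at least 26.1-fold lower over the group (adjusted p = 0.0043). Timp2, a protease inhibitor, fell 2.18-fold, and Timp1 rose 12.8-fold. Among actin and cytoskeleton genes 7 of 22 rose and 1 fell (8 and 1 without LPS replicate 3, 4 and 1 with RLE scaling). Marcksl1, which tethers actin to the membrane, rose from 38.9, 28.1 and 31.7 to 3329.7, 2584 and 2153 CPM (81.5-fold, adjusted p = 1.8e-05), and Actb 3.85-fold (adjusted p = 0.01). Actg1 did not pass (log2 0.09). Adhesion, matrix and proteases had shares of 66.7% higher and 8.33% lower, and counted 12 and 5 with library totals. Actin and cytoskeleton had shares of 31.8% higher and 4.55% lower, and counted 2 and 3 with library totals and 1 higher without vehicle replicate 1. Actb did not pass with library totals. Timp2 lost its call without any 1 of the vehicle libraries or LPS replicate 1 or 2 (adjusted p 0.073 to 0.15), and Actb without any 1 of the vehicle libraries (adjusted p 0.062 to 0.079). Mmp14 stood at log2 6.06 without LPS replicate 3, and Timp1 at 3.07 without LPS replicate 2.

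Several survival genes rose, and so did a brake on the cell cycle. Cflar, which blocks caspase-8, rose 62.2-fold (adjusted p = 5.0e-05), and Birc3, an inhibitor of apoptosis, 8.09-fold (adjusted p = 0.00029). Cdkn1a, the cell cycle inhibitor p21, went from 206, 367 and 245 CPM to 4084, 8292 and 2100.0 CPM (17.7-fold, log2 4.15 ± 0.58, adjusted p = 0.00086). Mlkl, the executioner of necroptosis, rose 15.5-fold (adjusted p = 5.7e-05). Gadd45b rose 9.36-fold while its relative Gadd45a fell 7.24-fold (adjusted p = 0.00029 and 0.0012). Bax, Bcl2l1 and Bcl2l11 did not pass (log2 0.01, 0.33 and -0.12). The Bcl2a1 genes are near-identical copies whose reads may be split: Bcl2a1a passed and Bcl2a1b without LPS replicate 3 but not with all libraries. The list held 8 rises and 1 fall of 22 (12 and 1 without LPS replicate 3). Survival and apoptosis had shares of 36.4% higher and 4.55% lower, and counted 7 and 2 with library totals. Cdkn1a stood at log2 3.49 without LPS replicate 2.

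Proliferation genes fell in 12 of 33 tested members, against 9.19% of all genes, and rose in 4, with a median of log2 -2.10. Without LPS replicate 3, 17 fell and 6 rose of 36 tested. Levels were low, which limits each value. Dnmt1, the maintenance methyltransferase, had 233, 63 and 134 counts in the vehicle libraries and 0, 0 and 0 after LPS. Mcm7, a helicase subunit, had 77, 25 and 62 and 0, 0 and 0 counts, at least 14.6-fold lower over the group, and E2f2, a cell cycle factor, 42, 43 and 41 and 0, 0 and 0 counts. Cenpa, the centromere histone, fell from 50.1, 75.5 and 61.4 to 5.27, 15.3 and 1.95 CPM (7.52-fold lower, adjusted p = 0.0058). Mki67, Pcna and Mcm6 did not pass with all libraries (log2 0.97, 0.63 and 0.20). The D-type cyclins differed: Ccnd1 rose 6.83-fold and Ccnd2 from 5.71, 6.69 and 8.98 CPM to 827, 1155 and 782 CPM (129-fold, log2 7.01 ± 0.43, adjusted p = 1.5e-05), and Ccnd3 did not pass (log2 -0.39). Proliferation and DNA replication had shares of 12.1% higher and 36.4% lower, and counted 3 and 18 with library totals and 4 lower without vehicle replicate 1. E2f2 lost its call without vehicle replicate 3 (adjusted p = 0.056). Cenpa stood at log2 -3.83 without LPS replicate 2.

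Stress and protein-making genes gave mixed results. In the ATF4 and amino acid list 4 rose and 6 fell of 15 tested (2 and 6 with RLE scaling). Without LPS replicate 3, 4 rose and 8 fell of 18 tested, and the list's median of log2 0.26 became -0.97. Cebpg, a partner of ATF4, fell from 106, 411 and 139 to 24.4, 68.6 and 31.1 CPM (5.23-fold lower, adjusted p = 0.018), Ddit3, which encodes CHOP, fell 3.25-fold, and Sesn2, a stress-induced brake on growth signalling, had 47, 42 and 29 counts before and 0, 0 and 0 after. Ppp1r15a, which ends the stress response, rose 5.02-fold and Nupr1, a stress-induced chromatin protein, 28.7-fold (adjusted p = 0.0049 and 8.6e-05), and Atf4 itself did not pass (log2 0.26). Among chaperones 4 of 26 rose and 1 fell (5 and 1 without LPS replicate 3), with Hspa5, the endoplasmic reticulum chaperone BiP, 3.22-fold higher and Dnaja1 4.74-fold higher. Of ribosome biogenesis factors 3 of 27 rose and 1 fell (4 and 2 without LPS replicate 3), with the assembly factors Rrs1 and Wdr43 6.15-fold and 4.33-fold higher. In the chromatin list, of 21 tested genes 3 rose and 2 fell (without LPS replicate 3, 4 and 3). Kdm6b, which removes repressive histone marks, rose 5.99-fold, Tet2, which oxidises methylated DNA, 4.97-fold, and Hdac5, a histone deacetylase, fell from 60.8, 83.9 and 62.1 to 2.3, 6.24 and 0 CPM (20.2-fold lower, adjusted p = 0.00094). ATF4 stress response and amino acid supply had shares of 26.7% higher and 40% lower, and counted 2 and 7 with library totals, 2 higher without vehicle replicate 1 and 2 lower without vehicle replicate 3. Endoplasmic reticulum and cytosolic chaperones had shares of 15.4% higher and 3.85% lower, and counted 2 and 6 with library totals and 2 higher without vehicle replicate 1. Ribosome biogenesis had shares of 11.1% higher and 3.7% lower, and counted 1 and 4 with library totals and 1 higher without vehicle replicate 3. DNA repair and chromatin had shares of 14.3% higher and 9.52% lower, and counted 2 and 8 with library totals. Hspa5 and Wdr43 did not pass with library totals. Cebpg lost its call without vehicle replicate 2 or LPS replicate 1 (adjusted p 0.059 to 0.083), Ddit3 without any 1 of the vehicle libraries (adjusted p 0.11 to 0.12), and Sesn2 and Rrs1 without vehicle replicate 3 (adjusted p 0.053 to 0.06). Cebpg stood at log2 -1.57 without vehicle replicate 2, Cebpg and Hdac5 at -3.02 and -5.23 without LPS replicate 2, and Rrs1 at 1.79 without LPS replicate 3.

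Beyond the lists, the largest rises among genes seen in every vehicle library included Lhx2 and Tarm1. Lhx2, a homeobox factor better known from brain and limb, stood at 0.476, 0.669 and 0.788 CPM in vehicle libraries and 519, 573 and 555 CPM after LPS (843-fold, log2 9.72 ± 0.45, adjusted p = 1.2e-05; Entrez gene 16870, chromosome 2 from 38339271 to 38369737), with the 3 LPS libraries close to each other. Tarm1, an activating receptor of myeloid cells, rose 442-fold, from 0.666, 0.669 and 0.63 to 194, 309 and 407 CPM (adjusted p = 1.5e-05). The other 10 of the 12 were Ptgs2, Acod1, Ifi205, Cxcl10, Cd69, Il1a, Cxcl9, Gbp5, Socs1 and Cd40.

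The 12 largest falls among genes seen in every LPS library included, besides Cxcr4 and Slc40a1, Rassf3, a Ras-association protein, at 162, 237 and 204 CPM in vehicle libraries and 9.55, 1.7 and 5.84 CPM after LPS (33.6-fold lower, adjusted p = 0.00020). Lpar6, a lysophosphatidic acid receptor, fell 32.2-fold (adjusted p = 0.00040), and Arhgap19, a GTPase-activating protein, 31.7-fold (adjusted p = 0.00014). Mnt, a repressor that competes with MYC for its partner MAX, fell from 67.6, 76.2 and 127 to 0.987, 6.24 and 1.95 CPM (29.2-fold lower, adjusted p = 0.00071). Cerk, which phosphorylates ceramide, fell 25.1-fold and Pdxk, which activates vitamin B6, 18.5-fold (adjusted p = 0.00087 and 0.00016). Cd300lb, an activating receptor of myeloid cells, fell from 223, 218 and 229 CPM to 10.2, 11.9 and 13.6 CPM (19.2-fold lower, adjusted p = 3.7e-05), with close values within both groups. The remaining 3 were Arl4c, Tmem104 and Tcp11l2. Of all 858 lowered genes 150 were at 0 in the 3 LPS libraries and 463 at 0 in LPS replicate 3, the library of least depth. Rassf3 and Lpar6 stood at log2 -6.18 and -4.42 without LPS replicate 1, Lpar6 and Cerk at -5.61 and -5.42 without LPS replicate 3, and Mnt and Pdxk at -6.24 and -4.82 without LPS replicate 2.

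By mean share of counts in each group, Prdx1, Rsad2 and Sdc4 gained most. The first place of Prdx1 rests on LPS replicate 3, and in LPS replicates 1 and 2 Rsad2 held more. Rsad2, the antiviral viperin gene, held 0.0189%, 0.0331% and 0.0234% of the counts of the vehicle libraries and 3.88%, 5.24% and 2.64% after LPS. Sdc4, the heparan sulfate proteoglycan syndecan-4, held 0.0336%, 0.0696% and 0.0428% and then 1.6%, 1.91% and 4.61%, and Daxx, a histone chaperone, 0.0237%, 0.0699% and 0.039% and then 0.362%, 0.521% and 1.46%. Prdx1 held 1.34%, 2.03% and 1.49% and 3.81%, 3.28% and 17.6%. In Prdx1, Sdc4, Daxx and H2-K1 the share in LPS replicate 3 was far above that in the other LPS libraries, and in Acod1 it was below (1.37%, 1.59% and 0.403%). The largest losses of share were those of abundant resting transcripts, Fth1 (2.21%, 1.47% and 1.88% before and 1.58%, 1.31% and 0.338% after), Malat1, a nuclear noncoding RNA (1.76%, 0.885% and 0.995% and 0.757%, 0.498% and 0.286%), and the lysosomal genes Ctsb, Psap, Ctsd and Ctss. On the scaled values Fth1 and Malat1 did not pass (log2 0.15 and -0.25). Prdx1 lost its call without any 1 of the vehicle libraries (adjusted p 0.11 to 0.13). Sdc4, Daxx and Prdx1 stood at log2 5.98, 4.12 and 1.94 without LPS replicate 3.

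**Figure D4:**
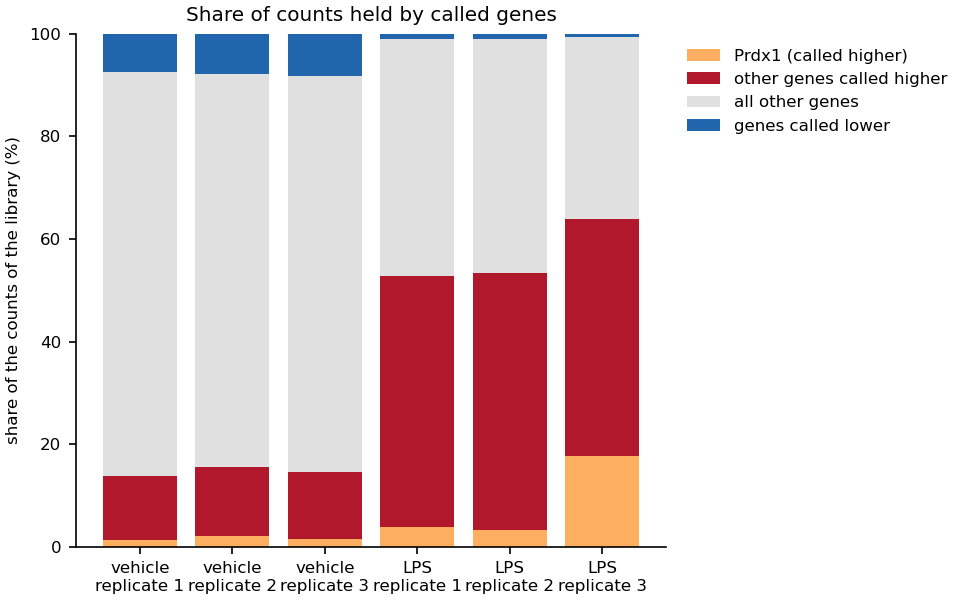
Bars give the share of each library's counts held by Prdx1, by the other genes called higher, by genes not called and by genes called lower, in percent, for the 3 vehicle and 3 LPS libraries. Genes called higher, Prdx1 included, hold 13.8% to 15.6% of the vehicle libraries and 52.7% to 63.8% of the LPS libraries, and Prdx1 alone holds 17.6% of LPS replicate 3.

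The 5 genes with the largest excess share in it over LPS replicates 1 and 2 were Fermt3, an integrin activator, at 8.5 times their mean share, Phc2, a Polycomb subunit, at 6.7, the ubiquitin-conjugating enzyme gene Ube2z at 6.11, the RNA helicase gene Ddx39b at 6.04 and the proteasome subunit Psmb3 at 5.81 times. Fermt3 stood at 282, 344 and 398 CPM in vehicle libraries and 281, 143 and 2664 CPM after LPS, and its log2 value changed from 1.59 with all libraries to -0.70 without LPS replicate 3. Phc2 passed both ways (18.7-fold with all libraries, log2 2.23 and adjusted p = 0.0014 without). Of the 1250 raised genes 1218 passed without this library, and of the 858 lowered genes 854. Another 393 passed as higher and 569 as lower without it but not with it, and 0 genes were called in opposite directions by edgeR in the 2 fits. Calls that held without each of the 6 libraries in turn numbered 698 of 1250 rises and 230 of 858 falls. Among gene list members these numbers were 215 of 276 and 23 of 59. Phc2 lost its call without vehicle replicate 1 or 3 (adjusted p 0.055 to 0.07), and Ube2z without any 1 of the vehicle libraries (adjusted p 0.057 to 0.096). Phc2 and Ube2z stood at log2 2.23 and 1.59 without LPS replicate 3.

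**Figure D5:**
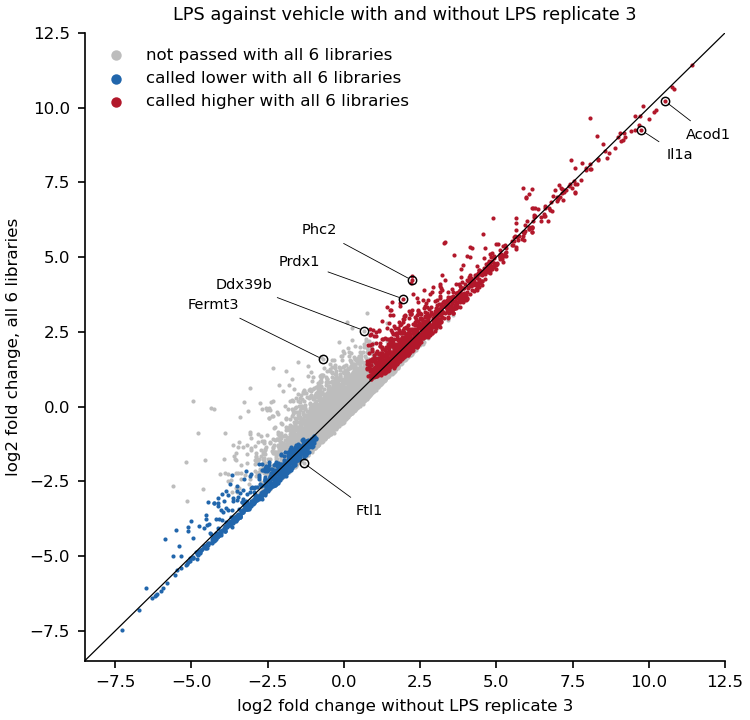
Log2 fold change of 9151 tested genes with all 6 libraries (vertical) against the value without LPS replicate 3 (horizontal), leaving out genes at 0 in a group, and the diagonal marks equal values. Labelled genes above the line, such as Prdx1 and Fermt3, have higher values when LPS replicate 3 is included, and Acod1, Il1a and Ftl1 lie below it.

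The same stimulus was also applied to cells given dimethyl itaconate at 0.25 mM for 12 h, in 6 other libraries of the experiment. The directions can be set side by side because the comparisons share no library. Of the 1250 raised genes 1211 were tested there, 1156 had the same sign, and 927 passed as higher, where 17.0% of all genes did. Of the 858 lowered genes 812 were tested there, 763 had the same sign, and 503 passed as lower, against 15.8% of all genes. Called in the opposite direction were 4 raised and 8 lowered genes. Whether single responses differ between the compound and vehicle cells was not tested in this comparison.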

How the data were processed

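Bone marrow-derived macrophages of 6 libraries were compared, 3 of vehicle cells and 3 of cells given LPS. The deposited table holds the authors' whole-number counts per gene, from sequencing of transcript ends, with no normalization. Per the submitters' processing notes STAR, HTSeq, DESeq2 and the mouse build mm10 were used, while versions, annotation and counting options are not given in the sources used here. Without molecular identifiers, intervals and floors cover counting error only. Near-identical copies, overlapping genes and antisense genes may share reads, and their values are uncertain.

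Of 24052 gene identifiers 23969 were matched to symbols and positions of GRCm38.p6. Genes were kept by filterByExpr with a minimum count of 10, scaled by TMM and tested 2-sided with the quasi-likelihood test of edgeR 4.0.16 in R 4.3.3 on these 6 libraries, with Benjamini-Hochberg adjustment over all 9341 genes and a threshold of 0.05. CPM use the TMM-scaled library size. Errors of log2 values are standard errors of the fit. Fold bounds for a group at 0 use a floor of 3 counts over the group, and ratios from 1 to 3 counts have 95% exact counting intervals. Tested on simulated data made from these libraries, the fit recovered 5.2%, 42%, 90.8% and 92.8% of genes changed 2, 4, 16 and 64 times. Of its calls there 3.67% were false. The simulation gave both groups the same spread per gene and changed far fewer genes than were called here. The LPS libraries differed more among themselves than the vehicle libraries, so these shares may not hold for the real comparison. Libraries held 955718 to 7010265 counts. Alternatives were DESeq2 1.42.0, limma-voom (limma 3.58.1) with sample weights, other scalings and filters, 12 libraries in the fit, a replicate block and each library left out. Python 3.11.15 made tables and figures.

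Members, gene lists and tests were chosen with earlier results of these data known. Named genes are list members chosen by role, the 12 largest rises among genes with a count in every vehicle library and the 12 largest falls among genes with a count in every LPS library (both without overlap between groups), the 10 largest gains and 10 largest losses in share of counts, and the 5 genes with the largest share in LPS replicate 3 relative to the other LPS libraries. Same-numbered libraries were checked for pairing by the correlation of their deviations from the group means. The libraries of the other groups were not used, except for the directions in compound-treated cells, and the second experiment was not analysed here. A few list members are counted but not reported by name.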

Additional observations from a re-analysis of the deposited data

How the results depend on the processing

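Counts of genes called higher ranged from 625 with library totals to 1673 without LPS replicate 3, beside 1250 with TMM scaling and all 6 libraries. Counts called lower were 858 with all 6 libraries, 2794 with library totals, 1888 with 12 libraries in the fit, 1531 with DESeq2, 1503 with limma-voom and 454 with the replicate block. Leaving out each library in turn gave 746 to 1673 higher and 250 to 1623 lower. The replicate block left 1011 higher. Deviations of same-numbered libraries from their group means correlated at r = 0.275, -0.0565 and -0.0907 for replicates 1 to 3. With 3 libraries a group these values cannot decide whether the numbers pair the libraries. Of 337 named genes, 272 kept their call, or their lack of one, with library totals and 332 with RLE scaling. The numbers were 322 without LPS replicate 3 and 297 without vehicle replicate 3. Genes not called in either fit count as kept even if their sign changed, which happened 109 times over all alternatives. C1qa turned from log2 0.08 to a called -0.96 with library totals. The cause of these differences was not tested. Depth limits the precision of genes of few counts, and 3 counts in LPS replicate 3 are 3.14 CPM. In that library 463 of the 858 lowered genes were at 0, and so were 6.17% of genes predicted to hold at least 10 counts there.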
